A study of Rattus norvegicus with 10 samples.

Results

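The mammalian circadian clock was described here through its 10 core genes (Bmal1, Clock, Npas2, Per1, Per2, Per3, Cry1, Cry2, Nr1d1 and Nr1d2) in the liver of irradiated rats. A probe belonged to the set when its RefSeq accession carried one of these symbols, without regard to any measured value. The set itself was chosen with earlier results of these data known, so its shares below are not those of a blind choice. All 10 genes were found, on 12 of the 40945 probes tested, while 13426 genes in all had a symbol. The probe with the highest mean signal over all arrays stood for a gene, and the second probes of Npas2 and Per3 are given separately. Liver RNA came from male Wistar rats, 1 array per rat, taken 24 h after the irradiation. The control group held 3 unirradiated rats (0 Gy). The TBI group held 3 rats given 6.5 Gy of total body irradiation (TBI) from a 60Co source at 2 Gy/min, the dose of the labels, while the paper states a lower one. The MASM + TBI group held 4 rats that received MASM, a derivative of the plant alkaloid matrine, into the stomach at 30 mg/kg a day for 3 days and then the same irradiation. Rats given MASM alone were not analysed here. Age, feeding state and the hour of day at which each rat was killed are not given in the sources used here, so a shift in clock time between groups cannot be told apart from a change in clock gene level.

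The clock is a transcriptional feedback loop that runs in nearly every cell. BMAL1 pairs with CLOCK or its relative NPAS2 and, through a DNA element called the E-box, switches on the Per, Cry and Nr1d genes. PER and CRY proteins return to the nucleus and block that pair, while the nuclear receptors REV-ERB alpha and beta, the products of Nr1d1 and Nr1d2, repress Bmal1 and Npas2 through a site called the RORE. In liver the activator genes and the Nr1d genes peak at opposite times of day, and the loop drives many genes of glucose, lipid and bile acid metabolism through output factors such as DBP.

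Promoter sequences were examined because the called genes lie on both arms of this loop. RefSeq windows on build GRCr8, reaching from 250 bases before to 50 bases after an annotated start, covered 9 of the 10 genes in 11 windows. They were searched on both strands for the E-box CACGTG, a noncanonical E-box CACGTT, the D-box (TTATGTAA or TTACGTAA, the site of DBP and its relatives) and the RORE. The 250 bases before the start are shown for the 4 clock genes called between TBI and control, 5′ to 3′ on the strand of the gene, with motif matches in capitals. Bmal1 lies at chr1:176766078-176766327 (plus strand), Per2 at chr9:99496994-99497243 (minus), Cry2 at chr3:98860438-98860687 (minus), and the windows of the 2 annotated starts of Nr1d1 at chr10:84229455-84229704 and chr10:84231813-84232062 (both minus).
Bmal1: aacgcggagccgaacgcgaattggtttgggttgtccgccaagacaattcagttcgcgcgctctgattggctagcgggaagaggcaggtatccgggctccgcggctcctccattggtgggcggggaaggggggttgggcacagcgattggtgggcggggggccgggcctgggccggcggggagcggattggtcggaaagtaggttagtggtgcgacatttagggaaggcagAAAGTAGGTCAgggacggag
Per2: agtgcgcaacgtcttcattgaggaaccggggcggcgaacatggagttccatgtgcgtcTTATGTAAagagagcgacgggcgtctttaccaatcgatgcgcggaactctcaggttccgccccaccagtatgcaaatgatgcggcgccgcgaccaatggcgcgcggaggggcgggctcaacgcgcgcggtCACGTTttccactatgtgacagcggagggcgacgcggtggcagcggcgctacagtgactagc
Cry2: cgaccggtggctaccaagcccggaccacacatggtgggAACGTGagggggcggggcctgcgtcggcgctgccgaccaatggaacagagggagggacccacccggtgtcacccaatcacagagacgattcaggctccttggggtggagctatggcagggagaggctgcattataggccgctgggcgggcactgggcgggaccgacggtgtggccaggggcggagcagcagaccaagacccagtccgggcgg
Nr1d1, first window: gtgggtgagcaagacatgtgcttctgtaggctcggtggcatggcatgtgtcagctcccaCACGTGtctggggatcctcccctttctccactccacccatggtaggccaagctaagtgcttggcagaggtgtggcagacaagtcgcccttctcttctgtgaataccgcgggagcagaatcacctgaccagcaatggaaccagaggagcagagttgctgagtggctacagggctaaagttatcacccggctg
Nr1d1, second window: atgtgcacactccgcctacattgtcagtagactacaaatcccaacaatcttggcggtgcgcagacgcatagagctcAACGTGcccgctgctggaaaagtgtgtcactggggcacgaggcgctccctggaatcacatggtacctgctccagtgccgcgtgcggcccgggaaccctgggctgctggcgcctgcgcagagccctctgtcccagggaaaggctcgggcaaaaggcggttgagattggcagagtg

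Bmal1 carried a RORE match that began 20 bases before the start, a motif present in 0.356% of the 33469 promoter windows searched. Per2 carried a D-box 192 bases and a noncanonical E-box 62 bases before its start, motifs found in 1.01% and 4.83% of windows. Cry2 carried a noncanonical E-box 212 bases before its start. Nr1d1 carried an E-box 191 bases before its first start, a motif found in 6.42% of windows, and a noncanonical E-box 174 bases before its second. No matches overlapped, and the windows of Clock, Npas2, Per1, Per3 and Nr1d2 held none of these letters.

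**Figure D1:**
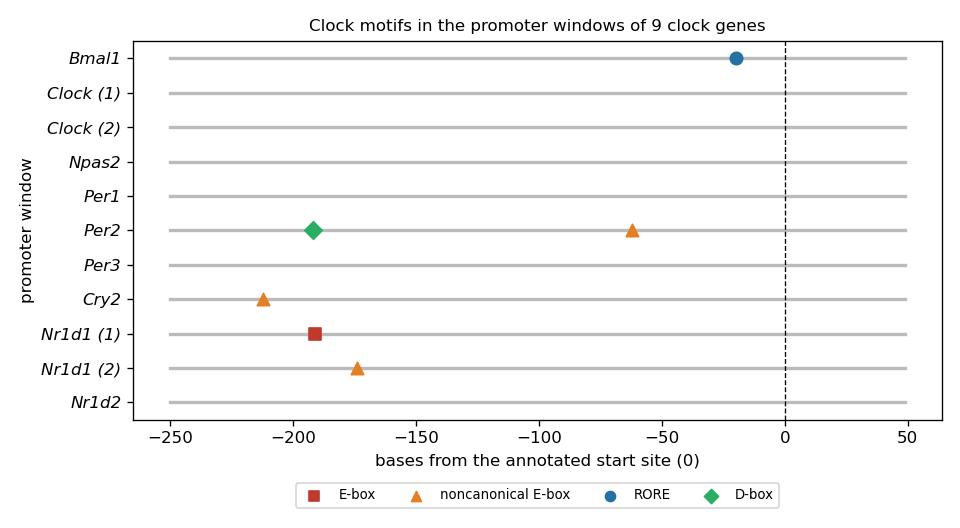
Positions of motif matches in the RefSeq promoter windows of 9 clock genes (11 windows). The horizontal axis gives bases from the annotated start site, and each marker stands at the leftmost base of a match. Matches were found in Bmal1, Per2, Cry2 and Nr1d1 only, at distances from 212 to 20 bases before the start.

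The arrays resembled each other closely, with correlations of log2 signal from 0.978 to 0.985 within groups and from 0.971 to 0.982 between groups. The share of spots well above background was higher on TBI arrays (64.1% to 70.1%) than on control (57.2% to 59.9%) or MASM + TBI arrays (56.2% to 60.2%). All control rats and MASM + TBI rat 3 lay on slide 1 and all TBI rats on slide 2. The other MASM + TBI rats lay on slide 3. Slide therefore cannot be told apart from group in TBI against control or in MASM + TBI against TBI. A heat map in the paper prints the array names of the rats labelled control under TBI and the reverse, and the labels were followed here. If the heat map were right, every difference between TBI and control would change sign, and the comparisons of MASM + TBI with control and with TBI would change places. By the labels, the lymphocyte markers below were lower in the TBI rats, and lymphocytes are among the cells most sensitive to radiation. On every array all 8 hepatocyte markers stood well above background, and none was called in any comparison (limma). At an unadjusted p under 0.05, 2, 2 and 0 passed for TBI against control, MASM + TBI against control and MASM + TBI against TBI, where 23.5%, 17% and 17% of all probes did. Of the 6 T and B lymphocyte markers measured, 1 of which was well above background on every array, 4 fell after TBI, against 3.19% of probes, and 3 in MASM + TBI rats, against 1.73%. Their summed signal was 594 to 727 in control, 189 to 374 in TBI and 194 to 384 in MASM + TBI rats. None of 8 Kupffer cell markers was called, but all 8 had lower estimates in MASM + TBI than in TBI rats (median -0.75, 6 at an unadjusted p under 0.05, against 17% of probes), with summed signals of 90434 to 139377 in control, 94779 to 174890 in TBI and 73215 to 94265 in MASM + TBI rats. Of 5 stellate and biliary markers, 1 fell in each irradiated group against control, where 3.19% and 1.73% of probes fell. It was Lrat, which stores retinol in stellate cells, with a fall of 0.62 in TBI and 0.60 in MASM + TBI rats (limma, adjusted p = 0.0116 and 0.0147). In each comparison 2 of the 5 had higher estimates, up to 0.72 in TBI and 0.51 in MASM + TBI rats. The medians of the 5 were -0.03 and -0.35. None of 5 neutrophil or 5 endothelial markers was called (at an unadjusted p under 0.05, 0 neutrophil and 2 endothelial markers in each irradiated group against control, where 23.5% of probes passed for TBI and 17% for MASM + TBI). The part of these cell types in the clock gene results was not tested, and in bulk tissue fewer cells of a type and less RNA per cell cannot be told apart.

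By the labels of the rats, the activator gene Bmal1 rose after TBI, and the repressor genes Cry2, Nr1d1 and Per2 fell. With limma and an adjusted p under 0.05 over all probes, 4 of 10 clock genes were called between TBI and control, against 5.63% of all probes. The 1 gene that rose compares with 2.44% of probes rising, and the 3 that fell with 3.19% falling. At an unadjusted p under 0.05, 9 of 10 passed, against 23.5% of probes. With the 1.5-fold threshold of the study's methods added, 8 of 10 clock genes passed, against 12.6% of probes. The values of the TBI rats lay wholly outside those of the control rats in 9 of 10 genes (higher in 3, lower in 6), against 30.3% of probes. The moderated F test across the 3 groups called Bmal1, Per2, Cry2 and Nr1d1, again 4 of 10, against 5.65% of probes. By the methods' t-test with the same adjustment, no clock gene was called between TBI and control, and with the slide as a random block 9 were. Leaving out 1 rat in the main model gave 1 to 5 called clock genes for TBI against control. It gave 1 without control rat 1, and 2 without control rat 2 or 3 or TBI rat 1. For the F test it gave 2 or 3, so that no omission kept all 4. The F test called 2 without any 1 control rat, TBI rat 1 or 3 or MASM + TBI rat 1.

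Bmal1, the obligate partner of the activator pair, had the largest difference of the 10 genes between TBI and control. Its log2 signal was 4.88, 5.18 and 5.50 in control rats 1 to 3 and 8.34, 7.49 and 8.58 in TBI rats 1 to 3. It was 6.70, 6.82, 5.18 and 7.23 in MASM + TBI rats 1 to 4. Every TBI rat lay above every other rat, and the MASM + TBI rats lay between, except rat 3, which sat within the control range. The group means were 5.19 ± 0.31 (SD, n = 3) in control, 8.14 ± 0.57 (n = 3) in TBI and 6.48 ± 0.89 (n = 4) in MASM + TBI rats. Bmal1 rose by 2.95 (SE 0.51) on the log2 scale after TBI, which is 7.71-fold (limma, adjusted p = 0.0173). With normexp background correction, which adds an offset of 50 to every signal, the rise was 1.36 on the log2 scale (adjusted p = 0.0123). Without control rat 1 or 2 the adjusted p was 0.0548 or 0.0532, so the call was lost.

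In MASM + TBI rats, Bmal1 was not called against either group. The estimated difference was 1.29 (95% interval 0.20 to 2.39, adjusted p = 0.210) from control and -1.65 (-2.74 to -0.56, adjusted p = 0.140) from TBI. The comparison with control turned on rat 3. Without it the difference from control was 1.73 with an adjusted p of 0.0396. Within slide 1, rat 3 differed from the mean of the controls by -0.00480.

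Clock and Npas2, which encode the alternative partners of BMAL1, had higher values in every TBI rat than in any control rat but were not called. For Clock the log2 signal was 3.89, 4.36 and 4.24 in control rats, 5.10, 4.75 and 4.66 in TBI rats, and 4.69, 4.72, 4.21 and 5.12 in MASM + TBI rats. The estimated difference for TBI against control was 0.67 (SE 0.23, adjusted p = 0.130). MASM + TBI rats differed from control by 0.52 (0.03 to 1.02, adjusted p = 0.264) and from TBI by -0.15 (-0.64 to 0.35, adjusted p = 0.776). The Clock probe was dim, well above background on 8 of 10 arrays, and rat 3 was again the lowest of the MASM + TBI rats.

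For Npas2 the mean of the MASM + TBI rats (5.64 ± 0.58, SD, n = 4) was the lowest of the groups. Its log2 signal was 6.36, 5.38 and 6.50 in control rats, 7.69, 7.05 and 7.51 in TBI rats, and 5.69, 6.12, 4.82 and 5.95 in MASM + TBI rats. The MASM + TBI rats lay wholly below the TBI rats and overlapped the controls. The estimated difference was 1.34 (SE 0.40, adjusted p = 0.0912) for TBI against control and -1.77 (SE 0.37, adjusted p = 0.0634) for MASM + TBI against TBI. Without MASM + TBI rat 3 the adjusted p for TBI against control was 0.0495. A second, dimmer Npas2 probe, well above background on 7 of 10 arrays, gave 0.54 (SE 0.37, adjusted p = 0.424) and -0.04 (SE 0.35, adjusted p = 0.968) for the same comparisons, so the probes disagreed on the second.

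**Figure D2:**
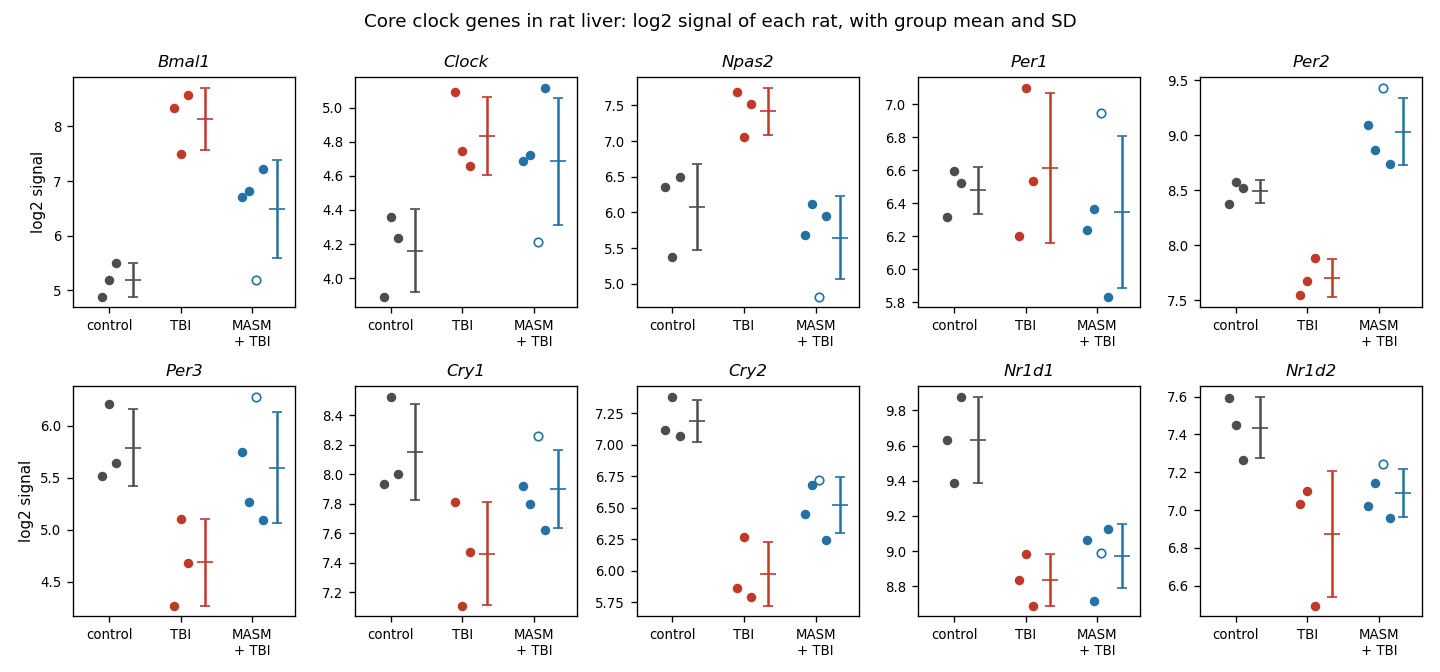
Log2 signal (vertical axis, quantile normalized) of the 10 clock genes in each rat, by group on the horizontal axis, with a separate vertical scale per gene. Points are rats, the open circle is MASM + TBI rat 3, which shared slide 1 with the controls, and bars give the group mean and SD. Bmal1 is highest in the TBI rats (7.49 to 8.58) and Per2 lowest there (7.55 to 7.88), while Per1 overlaps among all groups.

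Among the period genes, which encode the PER repressors, Per2 stood apart because TBI and MASM + TBI rats lay on opposite sides of the controls. Per2 log2 signal was 8.37, 8.57 and 8.52 in control rats, 7.55, 7.67 and 7.88 in TBI rats, and 9.09, 8.86, 9.43 and 8.74 in MASM + TBI rats. No value of any group overlapped another group. Per2 fell by 0.79 (SE 0.18) after TBI (limma, adjusted p = 0.0411), from 8.49 ± 0.10 (SD, n = 3) to 7.70 ± 0.17 (n = 3). It was 1.33 (SE 0.17) higher in MASM + TBI than in TBI rats, a 2.52-fold rise (limma, adjusted p = 0.00955) to 9.03 ± 0.30 (n = 4). Its difference between MASM + TBI and control rats was 0.54 (0.16 to 0.92, adjusted p = 0.134), which was not called.

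The call of Per2 between MASM + TBI and TBI rats held without any 1 of the 10 rats. It was lost with the methods' t-test and with blocks by replicate number. These groups shared no slide, so slide and MASM cannot be told apart in this difference. The fall after TBI was close to the threshold. It was not called without control rat 1, 2 or 3 (adjusted p = 0.0788, 0.107 and 0.120), TBI rat 1 or 2 (0.0925 and 0.0950) or MASM + TBI rat 1 or 2 (0.0654 and 0.0563).

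Per1, which responds quickly to hormonal and feeding signals, had values that overlapped among all groups. They were 6.32, 6.59 and 6.52 in control rats, 6.20, 7.10 and 6.54 in TBI rats, and 6.24, 6.36, 6.94 and 5.83 in MASM + TBI rats. The differences were 0.13 (-0.55 to 0.82, adjusted p = 0.821) for TBI and -0.13 (-0.77 to 0.50, adjusted p = 0.933) for MASM + TBI against control, intervals that leave room for change in either direction. Per3, the third period gene, had values of 5.52, 6.21 and 5.64 in control rats, 4.27, 5.11 and 4.68 in TBI rats, and 5.75, 5.26, 6.28 and 5.10 in MASM + TBI rats. All TBI rats lay below all control rats, while the MASM + TBI rats overlapped both groups. The Per3 difference was -1.10 (SE 0.35, adjusted p = 0.105) for TBI against control and 0.91 (SE 0.32, adjusted p = 0.204) for MASM + TBI against TBI. Its second probe gave -0.62 (adjusted p = 0.338) and 0.35 (adjusted p = 0.641), in the same directions.

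The cryptochrome genes Cry1 and Cry2 encode the proteins that block the activator pair most directly. Cry2 log2 signal was 7.12, 7.38 and 7.07 in control rats, 5.86, 6.27 and 5.79 in TBI rats, and 6.45, 6.68, 6.72 and 6.24 in MASM + TBI rats. Both irradiated groups lay wholly below the controls, and 1 MASM + TBI rat fell inside the TBI range. Cry2 fell by 1.21 (SE 0.17) after TBI, or 2.32-fold (limma, adjusted p = 0.00804), the smallest adjusted p of the 10 genes, and was called without any 1 of the 10 rats. With normexp the estimate was -0.58 (adjusted p = 0.00550). The difference of MASM + TBI rats from control was -0.67 (-1.04 to -0.30, adjusted p = 0.0704) and from TBI 0.55 (0.18 to 0.92, adjusted p = 0.146).

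Cry1 moved less, and no comparison called it. It was 7.93, 8.52 and 8.0 in control rats, 7.81, 7.11 and 7.47 in TBI rats, and 7.92, 7.80, 8.26 and 7.62 in MASM + TBI rats. The TBI rats lay below the controls, and the MASM + TBI rats overlapped both. The differences were -0.69 (SE 0.24, adjusted p = 0.129) for TBI against control and 0.44 (SE 0.22, adjusted p = 0.367) for MASM + TBI against TBI.

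Nr1d1 and Nr1d2 encode REV-ERB alpha and REV-ERB beta, the repressors of Bmal1. Nr1d1 log2 signal was 9.63, 9.39 and 9.88 in control rats, 8.84, 8.98 and 8.69 in TBI rats, and 9.07, 8.72, 8.99 and 9.12 in MASM + TBI rats. Both irradiated groups lay wholly below the controls and overlapped each other. Nr1d1 fell by 0.80 (SE 0.16) after TBI, or 1.74-fold (limma, adjusted p = 0.0260). The MASM + TBI rats differed from control by -0.66 (SE 0.15, adjusted p = 0.0529), just outside the threshold, and from TBI by 0.14 (-0.20 to 0.47, adjusted p = 0.674). The fall after TBI was not called without control rat 1 or 3 (adjusted p = 0.0699 and 0.0802) or without TBI rat 1 or 3 (0.0560 and 0.0518), nor in a model of the TBI and control rats alone (0.0752).

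Nr1d2 had the same order of groups as Nr1d1. Its values were 7.59, 7.45 and 7.27 in control rats, 7.03, 7.10 and 6.49 in TBI rats, and 7.02, 7.14, 7.24 and 6.96 in MASM + TBI rats. The controls again lay above all irradiated rats, but no comparison called the gene. The differences from control were -0.56 (SE 0.17, adjusted p = 0.0966) for TBI and -0.34 (SE 0.16, adjusted p = 0.323) for MASM + TBI rats.

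The size of these differences depended on the background correction. With normexp, all 10 clock genes had smaller differences between TBI and control. They were 0.14 for Clock, 0.61 for Npas2 (adjusted p = 0.0466), 0.07 for Per1, -0.52 for Per2 and -0.30 for Per3. They were -0.43 for Cry1, -0.58 for Nr1d1 and -0.28 for Nr1d2 (adjusted p = 0.0271), so that Npas2 and Nr1d2 joined the genes called and none left. In the same setting Cry2 (-0.33, adjusted p = 0.0448) and Nr1d1 (-0.51, 0.0331) were called between MASM + TBI and control, and Npas2 (-0.71, 0.0483) between MASM + TBI and TBI.

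**Figure D3:**
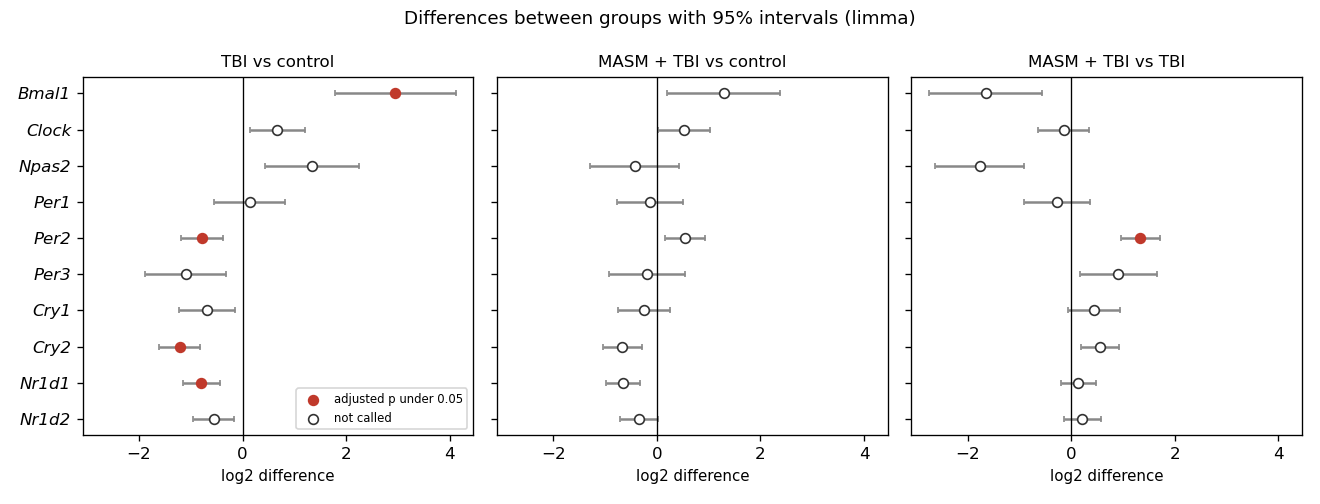
Log2 differences of the 10 clock genes in the 3 comparisons (horizontal axis), with 95% intervals from limma. Filled points have an adjusted p under 0.05 over all probes and open points do not. Bmal1 (2.95) stands to the right and Per2, Cry2 and Nr1d1 (-0.79 to -1.21) to the left for TBI against control, and Per2 (1.33) alone is filled for MASM + TBI against TBI.

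In rats given MASM before TBI, no clock gene was called in comparison with unirradiated controls, where 2.99% of all probes were called (1.26% higher, 1.73% lower). At an unadjusted p under 0.05, 5 of 10 passed, against 17% of probes, and by the threshold of the study's methods 3 of 10, against 8.06% of probes. In 4 of 10 genes the MASM + TBI rats lay wholly outside the controls, against 18.3% of probes: Per2 above, and Cry2, Nr1d1 and Nr1d2 below. A missed threshold leaves room for sizeable differences, since the interval for Bmal1 reached 2.39 and that for Cry2 -1.04.

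Between the irradiated groups, Per2 alone was called, 1 of 10 clock genes against 1.63% of probes, and it rose, where 0.911% of probes rose and 0.716% fell. At an unadjusted p under 0.05, 5 of 10 passed, against 17% of probes, and by the threshold of the study's methods 4 of 10, against 7.98% of probes. Per2 lay wholly above, and Bmal1 and Npas2 wholly below, the TBI rats, 3 of 10 genes against 18.5% of probes. The comparisons share their control or TBI rats and are not independent of each other.

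The MASM + TBI rats differed among themselves in most clock genes, and rats 3 and 4 took opposite ends. Rat 3 had the lowest value of the 4 in Bmal1, Clock and Npas2 and the highest in Per1, Per2, Per3, Cry1, Cry2 and Nr1d2. Rat 4 had the highest Bmal1, Clock and Nr1d1 and the lowest Per1, Per2, Per3, Cry1, Cry2 and Nr1d2. Rat 3 was the MASM + TBI rat on the slide of the controls. Its distance from the control mean was 0.05 for Clock, where the other 3 rats averaged 0.68, and 0.49 for Per3, where they averaged -0.42. For Npas2 and Per2 rat 3 lay farther from the control mean (-1.26 and 0.94) than the other 3 rats did on average (-0.16 and 0.41). For Nr1d1 rat 3 (-0.64) and the others (-0.66) did not separate. The part of the slide in the values of rat 3 was not tested, since no other MASM + TBI rat shared it.

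**Figure D4:**
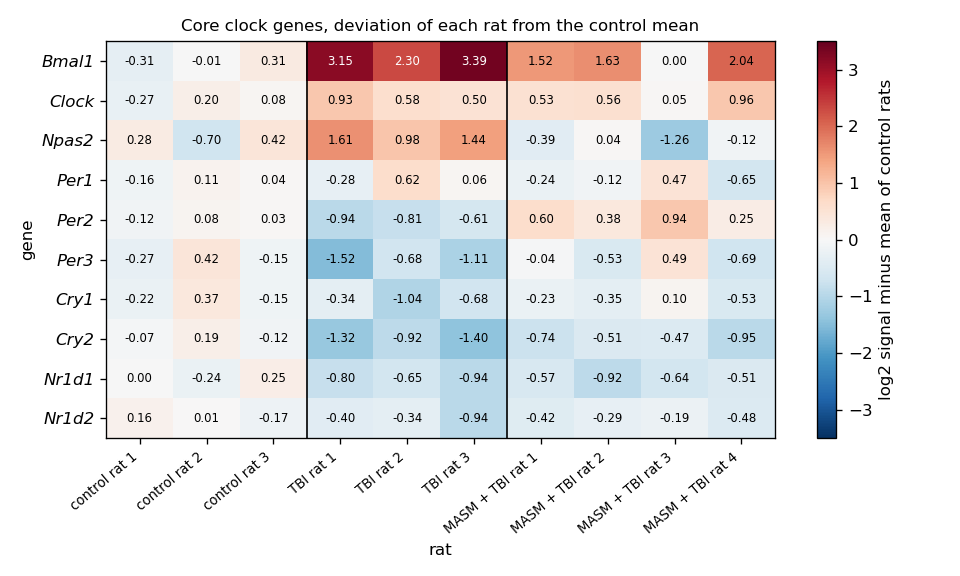
Log2 signal of each clock gene (rows) in each rat (columns) minus the mean of the control rats, in colour and as a printed value. Red is above and blue below the control mean, and black lines separate the groups. In MASM + TBI rat 3 the value for Bmal1 rounds to 0, while the other 3 rats of that group average 1.73.

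Other genes of the clock pathway were taken from a list of 36, of which 24 had a probe named through its accession. Probes of the other 12 may carry identifiers that the RefSeq table does not hold, so these genes are unnamed here, which does not show that they were not measured. After TBI none rose and 4 of 24 fell (Dbp, Timeless, Tef and Usp2), against 2.44% of probes rising and 3.19% falling. In MASM + TBI rats none rose and 2 of 24 fell against control (Dbp and Timeless), against 1.26% and 1.73%. Between the irradiated groups none was called by limma. At an unadjusted p under 0.05, 8, 7 and 5 of 24 passed for TBI against control, MASM + TBI against control and MASM + TBI against TBI, where 23.5%, 17% and 17% of all probes passed. The median log2 difference of the 24 genes was -0.17 for TBI and -0.12 for MASM + TBI against control and 0.05 between the irradiated groups, where all probes had medians of -0.03, 0.00 and 0.04.

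Dbp, an output factor of the loop that binds D-boxes, had 13.34, 13.34 and 13.35 in control rats, 11.16, 11.89 and 11.25 in TBI rats, and 12.14, 12.02, 12.65 and 12.03 in MASM + TBI rats. The 3 groups did not overlap, and the MASM + TBI rats lay between the others. Dbp fell by 1.91 (SE 0.22), or 3.76-fold, after TBI (limma, adjusted p = 0.00367), a call that held without any 1 of the 10 rats. It fell by 1.13 (SE 0.21) in MASM + TBI rats against control (adjusted p = 0.0297). That call was lost without any 1 control rat (adjusted p = 0.0726 to 0.104) and without MASM + TBI rat 1, 2 or 4 (0.0688 to 0.0871). Within slide 1 rat 3 differed from the mean of the controls by -0.69, a value with no replicate.

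Tef, a relative of Dbp, fell by 0.98 (SE 0.17) after TBI (limma, adjusted p = 0.0190). It was 8.98 to 9.22 in control, 7.74 to 8.41 in TBI and 8.49 to 8.85 in MASM + TBI rats, again without overlap. Usp2, a deubiquitinase known to act on clock proteins, fell by 1.60 (SE 0.30) after TBI (adjusted p = 0.0244), from 9.98 to 10.32 in control rats to 7.89 to 8.97 in TBI rats. The 4 MASM + TBI rats had 9.25 to 10.06, with rat 3 inside the control range. The Tef call was lost without control rat 1 or 2 (adjusted p = 0.0559 and 0.0613) and the Usp2 call without any 1 control rat (0.0519 to 0.0793), and both in a model of the TBI and control rats alone (0.0755 for Tef and 0.0729 for Usp2).

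Timeless, better known for DNA replication and its checkpoint than for the mammalian clock, fell by 0.93 (SE 0.12) after TBI (limma, adjusted p = 0.00631) and by 0.65 (SE 0.12) in MASM + TBI rats (0.0270) against control. Its values were 8.18 to 8.36 in control, 7.28 to 7.43 in TBI and 7.43 to 7.80 in MASM + TBI rats. The first call held without any 1 of the 10 rats, and the second was lost without any 1 control rat or MASM + TBI rat 1 or 4 (adjusted p = 0.0628 to 0.0907). Within slide 1 rat 3 differed from the mean of the controls by -0.47. Of the measured members of the loop, Nfil3, which competes with DBP for D-boxes, was not called, with 0.75 (SE 0.43, adjusted p = 0.341) for TBI against control.

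**Figure D5:**
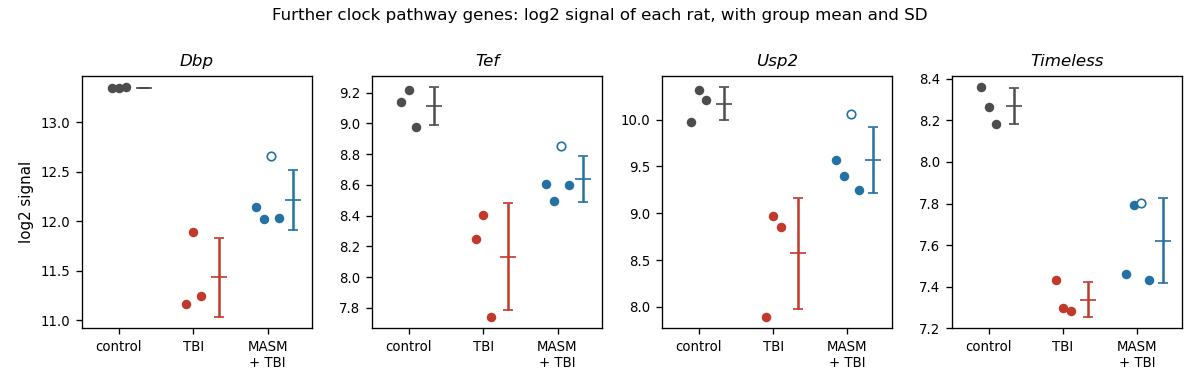
Log2 signal (vertical axis, separate scale per gene) of Dbp, Tef, Usp2 and Timeless in each rat, by group on the horizontal axis. Points are rats, the open circle is MASM + TBI rat 3 on slide 1, and bars give the group mean and SD. In all 4 genes the controls lie above every TBI rat, and for Dbp the control rats stay within 13.34 to 13.35.

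Glucocorticoids and food intake set the phase of the liver clock, so genes that respond to them were counted beside the clock genes. Of 8 genes induced by glucocorticoids, 2 rose after TBI and 2 fell, against 2.44% and 3.19% of probes. Sgk1, a kinase of salt transport, rose by 1.57 (limma, adjusted p = 0.0188), and Tsc22d3, which encodes the anti-inflammatory protein GILZ, rose by 0.68 (0.0343). Zbtb16, a transcription factor, fell by 2.40 (0.0190), and Fkbp5, a brake on the glucocorticoid receptor, fell by 0.82 (0.0370). Of the 8, limma called none in MASM + TBI rats against control, against 2.99% of probes, and 1 between the irradiated groups, Zbtb16, which was 2.12 higher in MASM + TBI rats (0.0435), against 0.911% of probes rising. At an unadjusted p under 0.05, 6, 4 and 3 of 8 passed for TBI against control, MASM + TBI against control and MASM + TBI against TBI, where 23.5%, 17% and 17% of probes did. Leaving out 1 rat lost each of these 5 calls at least once. The Sgk1 call was lost without any control rat (adjusted p = 0.0520 to 0.0638), and the Zbtb16 call after TBI without control rat 2 or 3 (0.0613 and 0.0643). The Tsc22d3 call was lost without any control or TBI rat or MASM + TBI rat 2 (0.0549 to 0.0988), and the Fkbp5 call without any control rat, TBI rat 2 or MASM + TBI rat 1 or 2 (0.0559 to 0.108). The Zbtb16 call between the irradiated groups was lost without any 1 of the 10 rats (0.0529 to 0.101), and MASM + TBI rat 4 lay far above the rest of its group in this gene. With normexp the Zbtb16 differences were -0.88 after TBI (0.0207) and 0.74 between the irradiated groups (0.0693).

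Of 8 genes induced by fasting, none was called by limma in any comparison, with 4, 3 and 1 at an unadjusted p under 0.05 for TBI against control, MASM + TBI against control and MASM + TBI against TBI, where 23.5%, 17% and 17% of probes passed. Of 6 measured genes induced by feeding, 1 fell after TBI, against 3.19% of probes, and 2 fell in MASM + TBI rats against control, against 1.73%. At an unadjusted p under 0.05, 4, 4 and 0 of 6 passed in the same order of comparisons, against the same shares of 23.5%, 17% and 17%. Estimates were higher in 2 of 6 after TBI (up to 1.26) and in 3 of 6 in MASM + TBI rats against control (up to 1.65). Pklr, the liver pyruvate kinase, fell by 1.22 after TBI (adjusted p = 0.0248) and by 1.39 in MASM + TBI rats (0.0165) against control. Scd, a fatty acid desaturase, fell by 3.67 in MASM + TBI rats against control (0.0355). Its estimate for TBI against control was -2.46, which was not called. The Pklr call after TBI was lost without control rat 1 or 3 or TBI rat 2 or 3 (adjusted p = 0.0511 to 0.0859), and that in MASM + TBI rats without control rat 3 (0.0722) or MASM + TBI rat 4 (0.0503). The Scd call was lost without control rat 1 or 3, TBI rat 1 or any MASM + TBI rat (0.0516 to 0.119). The part of hormones or food intake in the clock gene values was not tested.

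The genes whose log2 signal followed Bmal1 or Per2 most closely over the 10 arrays are named as a description, from 9570 genes compared. Pearson r with Bmal1 was 0.959 for Bcl2l10, 0.957 for Plag1, 0.946 for Riok1, 0.945 for Doxl1 and 0.944 for Prkab1. Plag1 was well above background on the 3 TBI arrays and on none of the other 7, so its r rests on background signal there. The most opposite to Bmal1 was Dbp (-0.957), before Cops4 (-0.956), Nat8 (-0.952), Mms22l (-0.950) and Slc25a51 (-0.943). For Per2 the highest r were those of Pomt2 (0.962), Abcb1a (0.944), Trmu (0.943), Pcsk6 (0.943) and F10 (0.942). The lowest were those of Cbll1 (-0.916), Zbtb45 (-0.915), Trappc4 (-0.911), Tmem164 (-0.900) and Tmem127 (-0.898). Dbp was also in the pathway list, and no other clock pathway gene was among these 20.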

How the data were processed

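Cy3-labelled liver RNA of 10 male rats (control 3, TBI 3, MASM + TBI 4) had been hybridised to Agilent whole rat genome arrays, 1 per rat. The authors deposited the spot intensity given by Feature Extraction 10.7.3.1, linear and background-subtracted but not normalized between arrays, and their value table repeats it. Groups came from the labels and slides from the file headers.

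Control spots (1639 of 45018) and outlier spots (76 to 112 per array) were dropped, and 0 spots were saturated. Values were taken to log2, quantile normalized as in the study and averaged per probe. Of 41012 probes, 40945 had values on all arrays and were tested. RefSeq accessions gave 16950 probes a symbol. The number of rats limits the precision.

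One model with a mean per group was fitted to all 10 arrays with limma 3.58.1 (R 4.3.3, the data.table package, version 1.17.8, prior degrees of freedom 1.43), with Benjamini-Hochberg adjustment over all probes. A gene was called at an adjusted p under 0.05 of its brightest probe. The code was tested on simulated data, and plots used matplotlib 3.10.9. Named were the clock genes, up to 4 called genes per list, and the 5 genes most and 5 least alike to Bmal1 and to Per2. The clock genes and the other lists were chosen with earlier results of these data known.

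Alternatives were scaling to percentile 75, normexp (offset 50) on the median foreground, since the files hold no mean, the value table, a filter on dim probes, the mean over probes, a trended robust prior, a model of the 2 groups compared, the methods' t-test, blocks by replicate number and by slide, and each rat left out. Positions and promoter sequences are RefSeq's on GRCr8, and array probes are given no position.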

Additional observations from a re-analysis of the deposited data

Results flagged for a closer look

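Of 22 probes tested for a sample far from the others of its group, 1 was noted, where chance alone gives about 1 in 20. In the MASM + TBI rats, Zbtb16, a gene induced by glucocorticoids, was highest in rat 4, and the gap between rat 4 and the next rat made up 0.837 of the range of the group, above the critical value of Dixon's test for 4 values. No clock gene was among such values.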

How the results depend on the processing

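No clock gene changed the direction of its difference between TBI and control under any of the alternatives that kept all rats, but normexp made all 10 smaller in size. The counts did move. Of the clock genes, TBI against control called 0 with the methods' t-test, 1 with the replicate block and 9 with the slide as a random block (consensus correlation -0.133). Over all probes these settings called 10, 1053 and 6742, where the main model called 2305 of 40945. MASM + TBI against control called 2 clock genes with normexp, with the filter on dim probes and with the random slide block, and 1 with the trended robust prior. Over all probes these settings called 1698, 1619, 2852 and 1418, where the main model called 1225. The filter on dim probes tested fewer probes. MASM + TBI against TBI called 2 clock genes with percentile scaling, normexp, the dim filter and the random slide block, and 0 with the t-test and the replicate block. Over all probes these settings called 5459, 464, 567, 2048, 4 and 22, where the main model called 666. Across the 3 groups the replicate block called 2 clock genes and the random slide block 7. Same-numbered rats of different groups did not deviate together (r from -0.125 to 0.169), so the numbers were taken as names only. With the replicate block Per1 for MASM + TBI against control turned to 0.037.

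Of the other pathway genes, TBI against control called 2 in a model of the 2 groups and 0 with the t-test. MASM + TBI against control called 1 in a model of the 2 groups and 0 with percentile scaling, the t-test, the replicate block and the slide as a fixed block, and MASM + TBI against TBI called 2 with percentile scaling. Over all probes, TBI against control called 7458 with percentile scaling, 972 in a model of the 2 groups, 10 with the t-test, 1053 with the replicate block and 6742 with the random slide block. MASM + TBI against control called 815 with percentile scaling, 40 with the t-test, 298 with the replicate block, 2852 with the random and 526 with the fixed slide block. MASM + TBI against TBI called 5459, 263, 4, 22 and 2048 with percentile scaling, the model of the 2 groups, the t-test, the replicate block and the random slide block. Percentile scaling lowered the share of higher probes among those called from 43.3% to 24.3% for TBI against control and raised it from 56.0% to 82.4% for MASM + TBI against TBI.

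With the slide as a fixed block, which leaves only rat 3 against the controls, MASM + TBI against control turned to -0.00480 for Bmal1, 0.47 for Per1, 0.49 for Per3 and 0.10 for Cry1, and the mean over probes turned Npas2 to 0.032. The fixed slide block could be fitted for this comparison only. Leaving out each rat in turn gave 1 to 5 clock genes, 2 to 4 other pathway genes and 969 to 2787 probes for TBI against control, and 2 to 3 clock genes across the 3 groups. It gave 0 to 1, 0 to 2 and 490 to 1488 for MASM + TBI against control and 1, 0 and 250 to 1268 for MASM + TBI against TBI. Leaving out each rat turned the sign in MASM + TBI against control for Per3 (-0.42 to 0.019, above 0 without control rat 2) and Per1 (-0.33 to 0.037, above 0 without MASM + TBI rat 4), for Per1 after TBI (-0.11, without TBI rat 2, to 0.34) and for Clock between the irradiated groups (-0.29 to 0.010, above 0 without MASM + TBI rat 3). The cause of these shifts was not tested. With 3 or 4 rats a group, dim probes such as those of Clock limit what can be seen.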
